A study of Mus musculus with 2 samples.

Results

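The regions described here are 347 transcript models that Cufflinks, a transcript assembler, built from reads of the embryonic mouse central nervous system in places where the mm9 gene table lists no gene. They were taken from 166608 assembled models in all. A model was kept when its span overlapped no gene span of the deposited Ensembl 65 table on either strand and when both of its RPKM values, read counts scaled to the length of the model and the size of the library, were at least 0.5. Of the 166608 models, 52720 lay outside the listed gene spans, and 52373 of these missed the RPKM minimum. At the same minimum 7854 models overlapped a listed gene. The members were thus chosen by their RPKM values, whose size is a description and carries no test. All statements on position refer to the 37310 genes of that table as used here.

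The libraries were made from polyadenylated RNA longer than 200 bases, freed of ribosomal RNA, of the central nervous system of C57BL/6J embryos at embryonic day 11.5. Each of the 2 libraries came from littermates of both sexes pooled together, and the labels call them biological replicates 1 and 2. There was 1 group with no treatment, genotype or second tissue, so the study has no contrast between conditions and no p-value is given. No label ties the 2 RPKM values of a model to replicate 1 or 2, and they are called the first and second value. The labels give no dissection boundary. Marker genes of neural progenitors (Sox2, Nes) and of young neurons (Tubb3, Dcx) had mm10 levels from 48.2 to 882 TPM over both libraries, TPM being a level scaled to gene length and library size.

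A transcript assembler joins overlapping reads into segments and uses reads that cross a splice junction to link segments into exons of 1 RNA. A spliced model is therefore backed by a second kind of evidence, the reads over the junction, whereas a model of 1 segment rests on coverage alone. RNA outside annotated genes in poly(A) libraries is known to include unannotated genes, long noncoding RNAs, extended 3′ ends of neighbouring genes and transcripts that start at promoters in the opposite direction. Reads from an abundant RNA can also be placed at processed pseudogenes, which are copies of its spliced form inserted elsewhere in the genome.

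The introns of 12 members have lengths that equal those of a gene in the later GENCODE M21 annotation on mm10, on the same strand and at the same neighbouring genes. Of the matched genes, 10 lie between the neighbours of the member, while Tnrc18 and Usp29 are a neighbour or reach across one. Of the 12 matches, 4 rest on 1 intron length only, those of Fam181a, Fignl2, AU020206 and 1810044D09Rik, which are all printed below. The sequences below give, for 8 of the 12, an exon join of the named gene. Its intron has the same length as an intron of the model that junction reads crossed in mm9. No read was placed on these sequences here. The choice covers coding and noncoding genes and leaves out joins with more reads, such as that of Tnrc18. Each run is read from the GENCODE M21 transcript, 5′ to 3′, with the last 15 bases of the upstream exon in capitals and the first 15 bases of the downstream exon in lower case. The build is GRCm38 (mm10).
Rpl41: GAAGAGAATGCGCAGgctgaagcgcaagag
Fam181a: TGGCCTTCACCTTCGgtctgccctgtgcgc
Fignl2: GGCCGGGATGCCGAGctctgttgaagatgc
Usp29: AAACGATGCTACCAGgtagccacatctgct
AU020206: TGCGTGAGCTGCATGgtaccagagcaccac
1810044D09Rik: CCAAGGAACATCATGtgcgcagggactgtg
E430024I08Rik: CGTTTTTGAAACATGgatgcagtgacttat
Gm46430: CATTTTTGAAACATGagtcaaagccccggt
The upstream parts of the last pair, from noncoding genes on chromosome 13 on either side of Zfp825, are identical at 14 of 15 bases. The single substitution is G2A, counted from the 5′ end of the printed run and with E430024I08Rik as the reference. Their downstream parts agree at 4 of 15 bases. In mm10 the printed joins remove the introns chr10:128548430-128548657 in Rpl41, chr12:103315071-103315771 in Fam181a, chr15:101054411-101078322 in Fignl2 and chr7:6738946-6766288 in Usp29. For the noncoding genes they remove chr7:75780757-75782051 in AU020206, chr6:91441159-91441441 in 1810044D09Rik, chr13:74450363-74462581 in E430024I08Rik and chr13:74612949-74617201 in Gm46430. Rpl41, Fignl2, AU020206, E430024I08Rik and Gm46430 lie on the minus strand.

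Most members were short and unspliced. The span ran from 101 to 301734 bases with a median of 515, and 256 members (73.8%) spanned less than 1 kb. The deposited exon table gave 140 members more than 1 exon segment, which is 40.3% of 347. Of the 1222 breaks between those segments, 1098 were shorter than 50 bases and only 124 were 50 bases or longer. Breaks were counted within a transcript of the model. A break of at least 50 bases is called an intron here, a limit chosen after the lengths were seen. By it 207 members were 1 segment, 74 had short breaks only and 66 had an intron. CUFF.59961, counted under short breaks, consists of 2 transcripts with an uncovered stretch between them. The same shares among models that overlap genes were 23.1% for 1 segment, 4.48% for short breaks only and 72.4% with an intron, against 59.7%, 21.3% and 19.02% among members.

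The 5 members cut into most segments were mainly not spliced models. CUFF.25581, which begins 44 bases downstream of the nearest gene on its strand, held 100 segments within 4044 bases and no intron. CUFF.108001 held 72 segments and an intron with 5 and 40 junction reads. CUFF.95639 had 59 segments, CUFF.9459 had 58 and CUFF.182928 had 57, all without an intron.

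The median of the 2 values' mean was 1.72 RPKM over the members, with a range from 0.521 to 643. The median was 2.03 RPKM for the first value and 1.33 RPKM for the second. For models that overlap genes the median mean was 1.35 RPKM. In models of 1 segment, many low values are whole multiples of what 1 read is worth. Of the values worth at most 20 such units, 58.3% of the first values and 59.7% of the second were whole within 0.02 units. By those units the 1-segment members rested on 35.0 to 255973 units in the first value, median 406.0, and on 28.0 to 654153 in the second, median 265. By the same step, 1 RPKM over 1 kb stands for 571 units in the first value and 510 in the second.

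The highest mean belonged to CUFF.1693 at chr1:24621720-24623065 on the minus strand, a model of 1 segment with 333 RPKM in the first value and 953 in the second. It lay 93 bases from a listed gene that M21 does not name. Between the same neighbouring genes M21 lists the entries Gm28438, Gm28437, Gm10925, Gm28661 and Gm29216 on that strand. Whether these are coding genes, noncoding genes or pseudogenes is not given here. CUFF.104922 at chr9:110183748-110183915 on the plus strand had 578 and 304 RPKM, and M21 names Mir6236, a microRNA gene, between its neighbours Cspg5 and Elp6. CUFF.68705 at chr6:66825325-66825821 had 216 and 135 RPKM, and its nearest listed gene, 4930597O21Rik, lay 18.8 kb away. On its strand between its neighbours M21 places vomeronasal receptor entries of the Vmn1r family and also Gm44261 and Gm9794. CUFF.6926 at chr1:104524773-104524975 had 224 and 99.2 RPKM and lay 214 kb from the nearest listed gene. These 4 members were high in both values, yet only CUFF.1693 was higher in the second.

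The next pair of members had nearly equal values. CUFF.63943 at chr6:3150768-3151732 had 155 RPKM in each value, and CUFF.14905 at chr2:22600245-22600724 had 142 in each. CUFF.145177 at chr13:113383784-113385439, 3.10 kb downstream of Ddx4 on its strand, had 144 and 86.4 RPKM. CUFF.137650 at chr12:111132572-111133356 had 89.9 and 92.9 RPKM. CUFF.156957 at chr15:47371524-47371744 had 110 and 63.8 RPKM. Only 1 of the 10 highest had an intron, CUFF.116603, which shares its intron lengths with Rpl41.

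At the other end of the range, the 3 members just inside the minimum were CUFF.143329 with 1.07 and 0.502 RPKM, CUFF.3318 with 0.503 and 0.974, and CUFF.98221 with 0.503 and 0.591. The 3 models just outside it were CUFF.131225 with 0.499 and 0.543 RPKM, CUFF.85691 with 4.52 and 0.496, and CUFF.58661 with 0.495 and 0.813. CUFF.85691 shows that a model was left out by 1 low value alone.

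The deposited contig list, which gives a coverage level pooled over both libraries for each stretch of continuous signal, covered nearly all members. A contig on the same strand overlapped 332 of 347, and 15 had none. The median member had 95.3% of its exonic bases inside such contigs, and 49 members also met a contig on the opposite strand. The scale of the contig level is not stated, so a ratio of RPKM to it has no meaning by its size and is given only beside the same ratio in other models.

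The 2 measures ordered the members differently. The highest contig level over CUFF.104922 was 2700 and over CUFF.6926 it was 811, both near the top of the list. Over CUFF.1693, the member with the highest RPKM, it was 1.24, over CUFF.145177 it was 4.17 and over CUFF.137650 it was 0.451. The mean RPKM divided by the highest contig level ran from 0.000389 to 518 in the 332 members, with a median of 0.761 and quartiles of 0.271 and 4.87. Among 1-segment members the quartiles were 0.361 and 7.02, and among 1760 models of 1 segment that overlap genes they were 0.234 and 0.982. In members with short breaks only the median ratio was 0.288, below that of the 1-segment members at 1.49. Across the 332 members Spearman's rho between mean RPKM and contig level was 0.15, a description over regions that share the same 2 libraries. Why the measures differ was not tested.

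**Figure D1:**
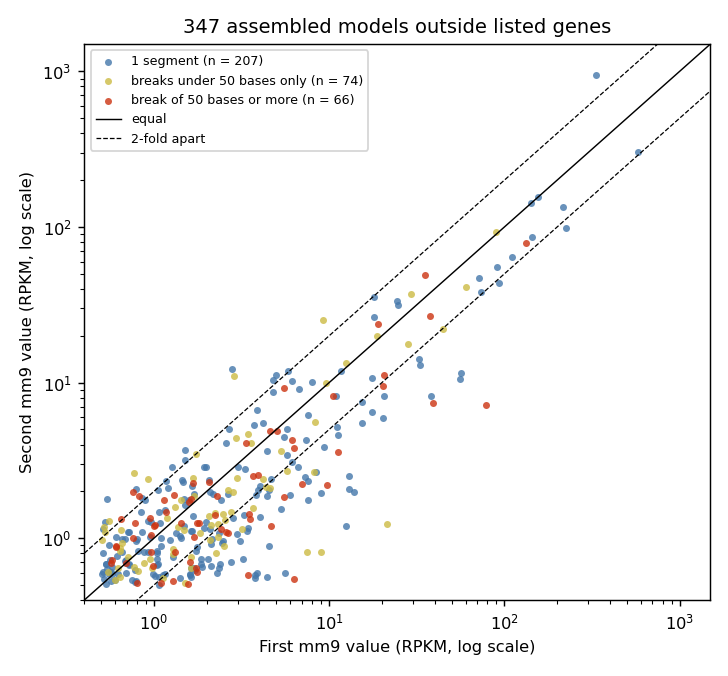
First against second RPKM value of the 347 members on log axes, coloured by structure, with lines for equal values and for values 2-fold apart. More points lie below the lower 2-fold line (107) than above the upper one (24), in all 3 structural classes.

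The second value was lower than the first in 217 of 347 members. The median log2 ratio of second over first was -0.42, while it was -0.00 over models that overlap genes. In 131 members (37.8%) the values differed at least 2-fold, 107 with the second lower and 24 with the second higher. Over all 8201 models at the minimum the share was 14.8%, with 10.3% lower and 4.52% higher in the second value. It was 13.8% among models that overlap genes. The rule used both values, and each side is 1 library, so this is a description of these libraries.

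The values were also scaled to their totals over all models, since the second total was lower by 0.31 on the log2 scale. The members then counted 71 lower and 41 higher by 2-fold, so that 63.4% of the 2-fold differences were toward the first value and not 81.7%. The models that overlap genes then counted 437 lower and 813 higher. After scaling the median log2 ratio was -0.11 for members and 0.31 for models that overlap genes.

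The 2-fold differences were not limited to 1 structure. Among 1-segment members 39.1% differed at least 2-fold, against 24.6% of the models of the same structure that overlap genes. The shares were 35.1% and 25.3% for models with short breaks only, and 36.4% and 9.65% for models with an intron. Among members with a mean of 5 RPKM or more, 46.2% differed at least 2-fold, against 27.7% of the models that overlap genes at that level.

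**Figure D2:**
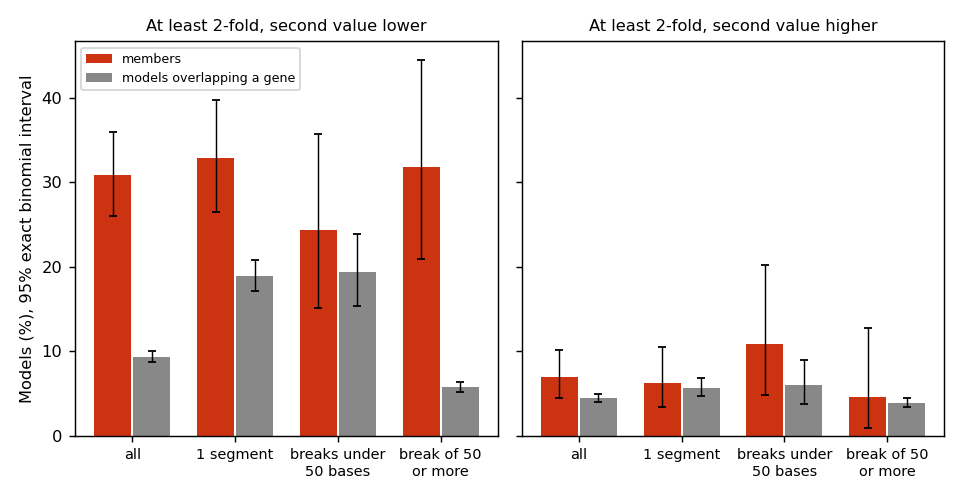
Share of models whose second RPKM value was at least 2-fold lower (left) or higher (right) than the first, for members and for models that overlap a gene, with exact 95% binomial intervals as error bars. The share lower in the second value was 30.8% for all members beside 9.37% for models that overlap genes, and the shares higher were 6.92% and 4.42%.

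The widest gaps toward the first value reached more than 10-fold. CUFF.182928, on chromosome 18, had 21.5 RPKM in the first value and 1.24 in the second, a log2 ratio of -4.12. CUFF.107178 at chr10:15086464-15240713 had 6.26 and 0.543 RPKM. CUFF.176032 at chr17:82590799-82592124 had 8.99 and 0.819 RPKM. CUFF.183463, on chromosome 18, had 78.1 and 7.20 RPKM, and CUFF.155750 at chr14:105082121-105082249 had 12.5 and 1.20. Both CUFF.176032 and CUFF.183463 are among the 15 members with no contig on their strand. CUFF.155750 is 1 segment and rested on 922 read units in the first value and 79.0 in the second.

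The widest gaps toward the second value were smaller. CUFF.6023 at chr1:87761093-87761273 had 2.80 RPKM in the first value and 12.3 in the second, a log2 ratio of 2.13, from 290 and 1134 read units. CUFF.181523 had 2.86 and 11.0 RPKM, and CUFF.180666, 229 bases from the sorting nexin gene Snx2 on the opposite strand, had 0.768 and 2.61. CUFF.102964 at chr9:90013721-90014562 had 0.538 and 1.77 RPKM. CUFF.1693, already named for its level, was the fifth with a log2 ratio of 1.52.

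Junction reads, which the rule did not use, separated a small spliced set from the rest. The deposited junction list counts reads over each junction from each replicate in fields R1 and R2, again with no tie to a labelled library, and marks junctions with a flag C whose meaning is not given in the sources used here. R1 held 72242374 reads in all and R2 held 57754886. Inside the span of 63 members (18.2%) lay a junction on the same strand with reads in both fields, against 75.1% of the models that overlap genes. Those models also had longer spans, with a median of 16436.5 bases beside 515. By structure the shares were 6.28% of members and 8.83% of models that overlap genes for 1 segment. For short breaks only they were 18.9% and 37.2%, and for models with an intron 54.5% and 98.5%. Of the 124 introns of members, 101 stood in the list, 64 had reads in both fields and 47 of these carried the C flag. At the level of models, 31 of the 66 members with an intron had at least 1 intron with reads in both fields, and 20 of these had such an intron with the C flag. Among models with an intron that overlap genes, 97.1% had an intron read in both fields and 96.4% had one with the C flag.

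**Figure D3:**
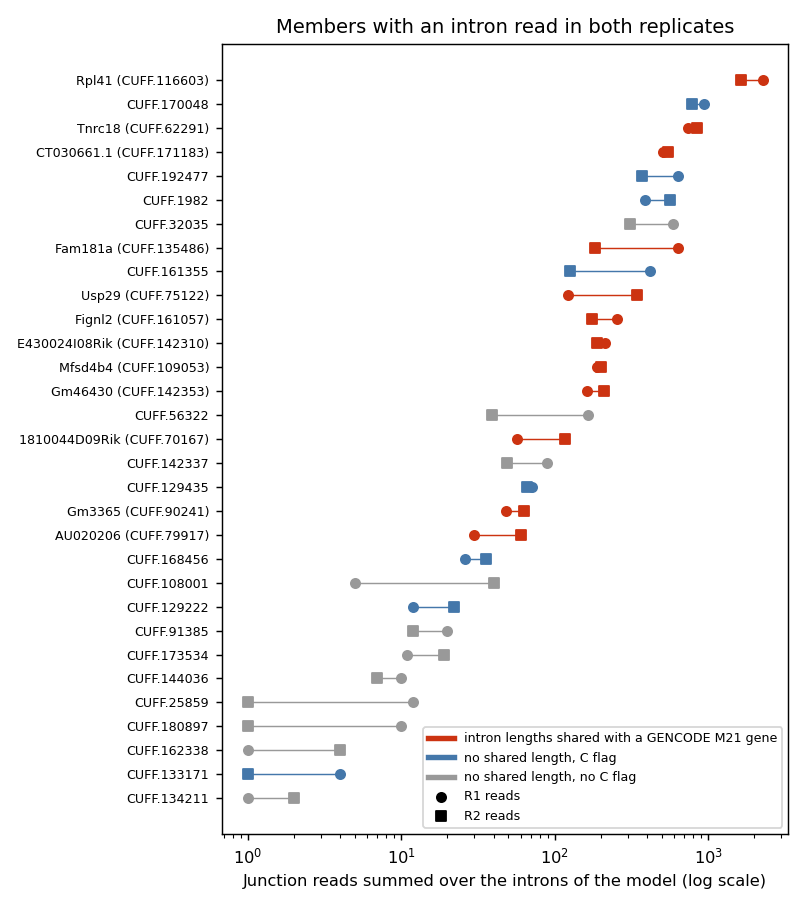
Junction reads summed over the introns of each of the 31 members with an intron read in both fields, on a log axis, circles for R1 and squares for R2. The 12 members that share intron lengths with a GENCODE M21 gene reach from 30 and 60 reads in AU020206 to 2265 and 1641 in Rpl41.

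The 20 members with C-flagged introns read in both fields had a median exonic length of 3376 bases, above the 673 of the other 46 members with an intron, and their median mean RPKM was 1.02 beside 2.45. Reads in both fields were required of the 20, so the ratio of their 2 RPKM values is not compared with that of the 46. Inside CUFF.142337 lay 520 junctions read in both fields and inside CUFF.32035 lay 308, and 0 of their own introns carried the C flag. This pair was named after its values were seen.

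CUFF.116603 carried the most junction reads over its own introns of any member. It lies at chr10:127985250-127986396 on the minus strand, 420 bases from Zc3h10, and had 133 RPKM in the first value and 78.7 in the second. Its 2 introns of 228 and 268 bases were crossed by 1850 and 415 reads in R1 and by 1218 and 423 in R2. Both lengths equal introns of Rpl41, which encodes ribosomal protein L41 of the large subunit. In the mm10 tables, where each library is labelled, the level of Rpl41 was 4163 TPM for replicate 1 and 3444 TPM for replicate 2, or 3803 ± 509 (SD, n = 2). An SD from a pair of values shows only how far this pair lay apart. Genes of ribosomal proteins have many processed pseudogenes, so how the authors' counting divided such reads is uncertain.

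Tnrc18 and Usp29 were the only matched genes whose identifiers stand in the Ensembl 65 table, and their members lie outside the listed spans of these genes. The identifiers of the other 10 do not stand in it as used here. This largely follows from their place between neighbours taken from that table. CUFF.62291 at chr5:143199697-143206836 on the minus strand had 0.611 and 0.879 RPKM, with 741 and 843 reads over its 2 introns. Tnrc18, named for its trinucleotide repeats, had 44.1 TPM (replicate 1) and 28.0 TPM (replicate 2). CUFF.75122 at chr7:6683266-6722743 on the plus strand started 134 bases from Peg3, pointing away from it, and had 0.760 and 1.98 RPKM. Its introns of 7504 and 27343 bases were crossed by 44 and 78 reads in R1 and by 46 and 299 in R2. Usp29, a paternally expressed imprinted gene next to Peg3, stood at 2.43 and 2.46 TPM in the 2 replicates. In the member the second RPKM value and the R2 reads were higher than the first value and the R1 reads. The TPM covers the whole gene, chr7:6730578-6967219 in mm10, and no label ties the mm9 values to a replicate. The measures are therefore not set against each other.

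A further 3 members share at least 1 intron length with a protein-coding gene that has mm10 values. CUFF.135486 at chr12:104552397-104555279 had 1.68 and 1.01 RPKM and 637 and 182 reads over 1 intron of 701 bases. Fam181a, its match, had 36.5 TPM (replicate 1) and 17.1 TPM (replicate 2). CUFF.161057 at chr15:100880733-100909304 had 0.697 and 0.693 RPKM and 253 and 175 reads over an intron of 23912 bases. Fignl2, a fidgetin-like member of the AAA ATPase family, stood at 8.78 ± 0.332 TPM. CUFF.109053 at chr10:39610004-39619072 had 0.566 and 0.696 RPKM and 188 and 201 reads over 4 introns, of which 3 equal introns of Mfsd4b4. Mfsd4b4, a transporter-like gene of the major facilitator family, stood at 7.68 and 9.96 TPM, and its relatives lie beside it, so the division of reads among them is uncertain.

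Of the matched noncoding genes, 2 had mm10 values. CUFF.79917 at chr7:82912179-82927092 on the minus strand had 2.06 and 2.29 RPKM, with 28 and 60 reads over an intron of 1295 bases that equals one of AU020206. Its other intron, of 8849 bases, had 2 and 0 reads and no match. AU020206, a long intergenic noncoding RNA gene, stood at 18.3 ± 1.22 TPM. CUFF.70167 at chr6:91390957-91391771 on the plus strand had 0.762 and 0.997 RPKM, with 57 and 116 reads over an intron of 283 bases. 1810044D09Rik had 7.08 TPM (replicate 1) and 9.40 TPM (replicate 2). Across the 8 genes, Fam181a had the widest ratio between replicates, with replicate 2 at 0.469 times replicate 1, and Rpl41 was the highest in both replicates.

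**Figure D4:**
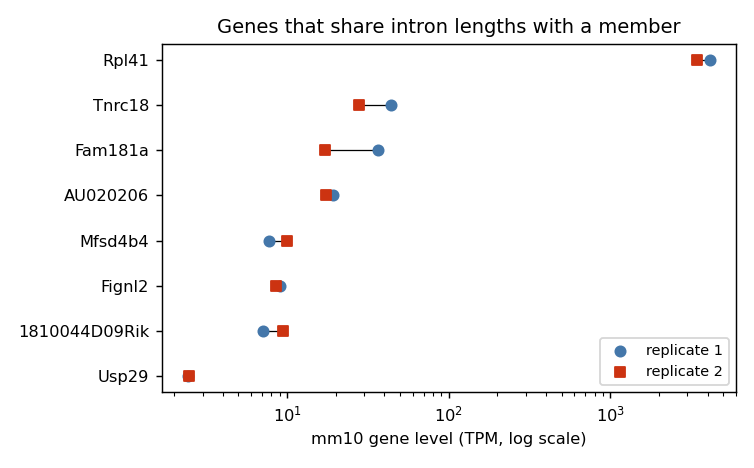
mm10 level in TPM, on a log axis, of the 8 matched genes that have a row in both gene tables, replicate 1 as circles and replicate 2 as squares. Rpl41 is highest at 4163 and 3444 TPM and Usp29 lowest at 2.43 and 2.46.

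The last 4 matched genes have no row in the mm10 tables used here, so only the mm9 values describe them. CUFF.142310 at chr13:74569207-74600683 had 0.778 and 1.25 RPKM, and its longest matched intron, of 12219 bases, was crossed by 165 and 132 reads. It shares 3 intron lengths with E430024I08Rik. CUFF.142353 at chr13:74713963-74755205 had 0.957 and 1.05 RPKM and shares 5 intron lengths with Gm46430. The gene Zfp825 lies between the pair, and another member, CUFF.142337, lies between Zfp825 and CUFF.142353 with 10.6 and 8.25 RPKM and introns that carry no C flag.

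CUFF.171183 at chr17:22332137-22451979 on the minus strand had 0.606 and 0.896 RPKM and 510 and 547 junction reads over 11 introns, 9 of them read in both fields. It shares 5 intron lengths with CT030661.1, listed as protein coding, and lies between the zinc finger genes Zfp947 and Zfp944. An assembled gap of 86.9 kb in it is not in the junction list, and 2 of its read introns lie inside that gap. CUFF.90241 at chr8:72078393-72100215 had 0.825 and 1.86 RPKM, with 48 and 63 reads over 4 introns, and shares 3 lengths with Gm3365, listed as an unprocessed pseudogene.

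In 8 members there were C-flagged introns read in both fields and no shared intron length. CUFF.170048 at chr17:6616943-6626291 on the plus strand, between the dynein light chain genes Dynlt1a and Dynlt1c, had 2.41 and 1.14 RPKM and 941 and 780 reads over introns of 7202 and 1975 bases. M21 places Dynlt1b, a near copy of its neighbours, in that interval, and its intron lengths are not those of the model. CUFF.192477 at chrX:93155719-93164469, between Las1l and Msn, had 2.24 and 1.40 RPKM and 633 and 368 reads over 3 introns. CUFF.1982 at chr1:30826477-30827771 had 1.31 and 1.89 RPKM and 389 and 568 reads. CUFF.161355 at chr16:3625035-3633303 had 1.01 and 1.21 RPKM and 415 and 126 reads over 1 intron. The other 4, CUFF.129222, CUFF.129435, CUFF.168456 and CUFF.133171, had between 1 and 71 reads in a field and were named after their values were seen.

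Long gaps were seldom read across. Of the 37 introns of 10 kb or more in members, 14 were not in the junction list, 10 had reads in both fields and 8 of those carried the C flag. CUFF.183463, one of the most uneven members, is joined across a gap of 145162 bases with no listed junction. CUFF.107178 is joined across 154069 bases by 5 reads in R1 and 0 in R2. The spans of such members describe how far the assembler reached, not a length of RNA that the junction reads show.

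The members farthest from any listed gene were of this kind or unspliced. CUFF.130921 at chr12:48795904-48914402 lay 741 kb from Gm1818, had 6.32 and 3.81 RPKM, and its intron of 118085 bases had 0 and 1 reads. CUFF.71548 at chr6:109455113-109521636 lay 623 kb from its nearest gene with 6.97 and 2.23 RPKM, and its intron of 66208 bases is not in the junction list. CUFF.183463 lay 506 kb away. CUFF.96541 at chr9:17537298-17538666 lay 493 kb away with 0.954 and 0.735 RPKM. CUFF.9459 at chr1:144989978-144991292 lay 455 kb from Cdc73 with 8.35 and 5.59 RPKM.

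The typical member lay closer to a gene. The median distance was 12.3 kb with quartiles of 2.99 and 40.5 kb, and the median of models outside genes under the minimum was 12.1 kb. Within 5 kb of a listed gene lay 110 members, which is 31.7% beside 31.0% of the models under the minimum. On the strand of that gene lay 76 members, 52 downstream of it and 24 upstream. These were 47.3% and 21.8% of the 110, beside 43.0% and 15.9% of the models under the minimum within 5 kb.

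Within 1 kb the members lay mostly past the 3′ end of a gene on its strand. Of 43 such members 28 (65.1%, exact 95% interval 49.1 to 79.0%) lay downstream on the same strand, beside 42.3% (40.8 to 43.7%) of the 4544 models under the minimum. The difference was not seen at the limit of 10 kb, where the shares were 41.2% (33.3 to 49.4%) and 41.8%. Only 6 of the 43 (14.0%, 5.30 to 27.9%) pointed away from the gene from its 5′ side, beside 30.2% of the models under the minimum. The genes involved differed too. Of the 28 nearest genes, 15 (53.6%, 33.9 to 72.5%) are pseudogenes in M21 and 5 are protein coding. Among the 1920 models under the minimum placed the same way, 6.46% lay next to a pseudogene and 78.2% next to a protein-coding gene. Over all members the differences were smaller. The nearest gene was protein coding in 178 (51.3%), beside 63.1% of the models under the minimum. It was a pseudogene in 44 (12.7% beside 8.26%) and a small RNA gene in 50 (14.4% beside 11.5%). In 62 (17.9% beside 10.5%) the nearest gene had no M21 entry.

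**Figure D5:**
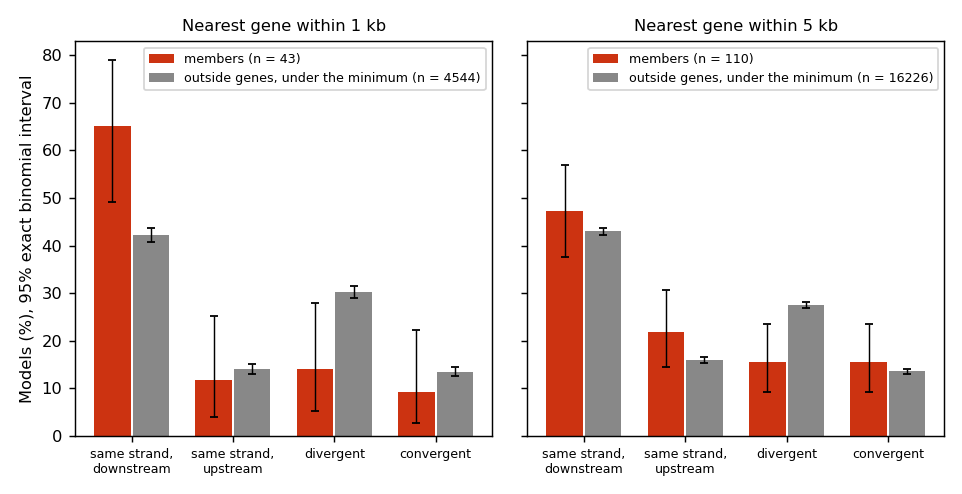
Position of models relative to the nearest listed gene within 1 kb (left) and 5 kb (right), as a percent of the models within that distance, for members and for models outside genes under the RPKM minimum, with exact 95% binomial intervals. Within 1 kb, 65.1% of members lie downstream on the same strand beside 42.3% of the other models.

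Genes of neural transcription factors were seldom the nearest gene. Of 104 such genes in a chosen list, 102 stood in the Ensembl 65 table. They were nearest to 2 members (0.576%, 0.0699 to 2.07%) and to 941 of the 52373 models under the minimum, which is 1.80% and lies within the interval of the members' share. Both members lay near Lhx5, a LIM homeobox gene of developing neurons, on the opposite strand and pointing away from it. CUFF.59961 at chr5:120869739-120881799, 96 bases from Lhx5, had 2.05 and 1.39 RPKM and 10 junctions read in both fields inside its span. CUFF.59962 at chr5:120873595-120875507, 6.39 kb from Lhx5, had 0.780 and 0.625 RPKM and 0 such junctions. It lies within the span of CUFF.59961 on the same strand. The 2 members are thus 1 locus, and the interval given for their share counts them as separate. M21 places Gm42654 on their strand in that interval. Of 40 long noncoding RNA genes in a chosen list, such as Rmst and Sox2ot, 0 were among the intron length matches. A model over the listed span of such a gene could not be a member by the rule.

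Some intervals between neighbouring genes held several members. There were 303 intervals with a member, and 5 of them held 3 or more. The interval between Ankrd24 and Zfp873 on chromosome 10, where M21 places zinc finger genes such as Zfp433 and Zfp781, held 7 members on both strands, all of 1 segment, with values from 0.579 to 2.35 RPKM. Between Gm6483 and 6820431F20Rik on chromosome 8 lay 6 members. Between Chd2, a chromatin remodeller gene, and Gm26176 on chromosome 7 lay 5 members on the strand of Chd2 and upstream of it at distances of 3.07 to 10.4 kb, with values from 0.526 to 1.91 RPKM. M21 places the gene Gm44738 on that strand there. Between Dynlt1c and Sytl3 and between Ripor1 and Ctcf lay 3 members each. Whether members of 1 interval belong to 1 RNA was not tested. Joining members within 1 kb on a strand left 321 regions.

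Counts of members by chromosome ran from 0 to 30. Chromosome 8 held 30, chromosome 10 held 28, and chromosomes 1, 12 and 13 held 26 each. Chromosomes 4 and 11 held 3 each, although they held 2993 and 2328 models outside genes and 520 and 610 models at the minimum that overlap genes. The Ensembl 65 table lists 2863 and 2953 genes on these, against 1643 on chromosome 8 and 1487 on chromosome 10, and the part of this in the counts was not tested. Chromosome X held 16 and chromosome Y held 0. On the plus strand lay 152 members and on the minus strand 195.

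Between the same neighbouring genes, 340 members could be placed in M21. Of these, 242 (71.2%) had at least 1 M21 gene on their strand in the interval. The share was 43.7% of the 51771 models under the minimum that could be placed. In 240 members (70.6%) at least 1 of those genes has an identifier that does not stand in the Ensembl 65 table as used here. The same held for 43.6% of the placed models under the minimum. The neighbours are the nearest genes of that table kept in M21, so a gene between them is nearly bound to be absent from it. For 98 members M21 places no gene of that strand in the interval. A gene in the same interval is not shown to be the member: positions were not converted between builds, and only the 12 intron length matches tie a model to a gene.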

How the data were processed

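Strand-specific paired-end libraries of 2 biological replicates were used. The authors deposited mm9 tables with 2 RPKM values per assembled model and per Ensembl 65 gene, a junction list with a read count per replicate, and a contig list with a pooled signal level, per the file headers and notes. They also deposited mm10 gene tables with an expected count and TPM for each labelled replicate, per the file headers. No source used here names an aligner or quantifier. Repeated gene lines were counted once. Overlap, nearest gene, segments, introns (breaks of at least 50 bases), junction reads and contigs were computed per model in Python 3.11.15 with pandas 2.3.3 and scipy 1.17.1, and the interval functions were tested on simulated data. Intron lengths were compared with GENCODE M21 on the same chromosome and strand, among genes from the left to the right listed neighbour, both included. Coordinates were not converted. Exact 95% binomial intervals, here and in the report, cover counting error only.

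The members and lists were chosen with earlier results of these data known. Members named are the 10 with the highest mean RPKM, the 5 with the widest ratio each way, the 5 with most junction reads over their introns, the 5 with most segments, the 5 farthest from a gene, 3 on each side of the minimum and the 10 matched genes with the highest TPM. Others named were chosen after their values were seen. Alternatives tried are the RPKM minimum, the strand rule, single values, distance limits, joining, the irreproducibility value, junction read limits, a pseudocount and scaling. No test between conditions was possible with 1 group. Exon and transcript tables of Ensembl 65 and transcript tables of mm10 were not used here.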

Additional observations from a re-analysis of the deposited data

How the results depend on the processing

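The number of members was 347 and moved to 615 at a minimum of 0.25 RPKM, to 198 at 1 RPKM and to 194 when members had to lie at least 10 kb from a gene. Requiring only the first or only the second value gave 612 and 455 members. The share with more than 1 segment was 40.3% and fell to 19.02% for breaks of at least 50 bases. With a single value it ran from 34.2 to 41.5%. The share with junction reads was 18.2% and stood at 8.93% with at least 10 reads in both fields and at 8.93% where both ends had to match an intron of the model. The share of members whose values differ at least 2-fold was 37.8% and moved to 23.3% with a pseudocount of 0.5 and to 32.3% after scaling to totals. The share within 5 kb of a gene and on its strand was 21.9%, and it was 9.51% within 1 kb, 28.5% within 10 kb and 12.4% when only genes at the RPKM minimum counted as neighbours. The number of matches in mm10 was 12, with 8 sharing at least 2 intron lengths and 6 sharing all. The cause of these moves was not tested, apart from the limits themselves. The minimum gap, the scaling, the restriction to members with an intron and the demand for reads over the shared intron were chosen after seeing the data. The deposited irreproducibility value was at most 0.028 in the members, so its limit of 0.1 removed none. No paired analysis was possible because there was 1 group. Depth limits what can be said of introns, since several of those named had fewer than 10 reads in a field.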
